A study of Auxenochlorella pyrenoidosa with 8 samples.

Results

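The transcript levels of a green alga after 24 h in air were compared with the levels on 5% CO2 across 9353 of 10283 predicted genes. The genes compared were those whose level averaged 1 RPKM or more in the 4 libraries compared, 2 from 0 h and 2 from 24 h. RPKM, the unit the authors deposited, is the number of reads in a gene divided by its length in kilobases and by the size of its library. The alga, strain FACHB-9, is named Auxenochlorella pyrenoidosa in the labels and Chlorella pyrenoidosa in the title of the series. Every culture had grown in light on 5% CO2 for 5 days. The 0 h group (n = 2) was sampled then, and the 24 h group (n = 2) after bubbling with air for a day. Groups sampled after 1 h and 4 h in air (n = 2 each) share the same history and served here to estimate the spread between libraries. The submitters describe a pair of independent biological experiments. No culture kept on 5% CO2 for the extra day is among the samples used here, so a day of growth and the change to air cannot be told apart. In cultures of this kind, a lower transcript level in every cell and fewer cells that carry the transcript cannot be told apart either.

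Carbon dioxide in air is too scarce to saturate Rubisco, the enzyme that fixes it. Green algae moved from high CO2 to air are known to build a carbon-concentrating mechanism, in which bicarbonate transporters and carbonic anhydrases raise the CO2 level around Rubisco in the pyrenoid of the chloroplast. In the model alga Chlamydomonas reinhardtii, genes of this mechanism and of photorespiration respond within hours, and cells that stay in air keep the mechanism. A comparison after a day therefore asks for the state of cells that have had time to adjust. The deposited files pair the gene numbers with no name or product, so the genes of these pathways, the markers of the organism and RNA quality genes were not examined, and genes are given by number, position and gene structure.

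Library 1 held 16706278 reads at 0 h and 18915889 at 24 h, and library 2 held 23106515 and 19388209. These reads were worked out from the RPKM values, of which 100% came out as whole reads within 0.01 reads. One read in a gene of 1 kb stood for 0.0433 to 0.0599 RPKM in these libraries. The genes compared took at least 99.8% of the reads of each. At the minimum of 1 RPKM, g7574 and g9747 stood just inside with means of 1.0011 and 1.0039 RPKM, and g6236 and g6995 stood just outside with 0.9989 and 0.9981 RPKM. RPKM here is per kilobase of the full gene span with introns, so levels of different genes are compared on that scale.

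The 2 libraries labelled 24 h were less like each other than each was like a library labelled 1 h. Across the 9353 genes, log2(RPKM + 1) of the 24 h libraries correlated at r = 0.935. The libraries of 0 h, 1 h and 4 h correlated at 0.968, 0.955 and 0.994. With 0 h library 2, 24 h libraries 1 and 2 correlated at 0.945 and 0.962, and with 0 h library 1 at 0.923 and 0.933. Their correlations with the 4 h libraries ran from 0.943 to 0.954. Each 24 h library was thus also more like 0 h library 2 and both 4 h libraries than like the other 24 h library. The 24 h library 1 correlated at 0.992 with 1 h library 2, and the 24 h library 2 at 0.980 with 1 h library 1. That 1 h library correlated at 0.981 with 0 h library 2. The same was seen in the recovered reads, where the chi-square of 2 libraries over genes with at least 10 reads came to 216 per degree of freedom for the 24 h libraries, 116 for the 0 h libraries and 20.2 for the 4 h libraries. It came to 21.3 for 24 h library 1 with 1 h library 2 and to 86.0 for 24 h library 2 with 1 h library 1. No pair agreed within sampling noise, and none was counted as 1 sample. The 24 h libraries differed from each other by 2-fold or more in 762 genes (8.15%), those of 0 h in 244 genes (2.61%), those of 1 h in 456 genes (4.88%) and those of 4 h in 14 genes (0.150%). On the log2 scale, the SD between the libraries of a time had a median of 0.218 for 24 h, 0.200 for 0 h, 0.169 for 1 h and 0.0820 for 4 h. Whether labels were exchanged between the 1 h and 24 h libraries was not tested, and every value at 24 h and at 1 h below rests on the labels as given.

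After a day in air, no gene passed the test against 0 h, although in 301 genes the groups did not overlap and their means were 2-fold or more apart. limma called 0 of 9353 genes at an adjusted p under 0.05 (0% in either direction), with a smallest adjusted p of 0.111. Before adjustment, 1726 genes had a p under 0.05, 384 higher and 1342 lower at 24 h, where chance alone gives 468. voom, limma's test for reads, called 0 as well, with 1388 genes at p under 0.05 before adjustment, 775 higher and 613 lower. The balance turned in the same way when limma was run after trimmed-mean scaling (778 higher and 646 lower) and after quantile normalization (725 and 659). With 24 h library 1 left out limma called 14 genes, and with 24 h library 2 left out it called 0. A fit of the 0 h and 24 h libraries alone, and one that left out both libraries labelled 1 h, called 1 gene, g4709. In limma on the 0 h and 24 h libraries alone, 883 genes had a p under 0.05 before adjustment, 218 higher and 665 lower. The fit of all libraries also took its spread from the 4 h pair. Its median SD was 0.0820, beside 0.218 at 24 h and 0.200 at 0 h, so the excess over 468 depended on the libraries fitted. An exact permutation test of 2 libraries against 2 cannot give a two-sided p below 0.333, so no single gene was tested that way.

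Both 24 h libraries lay above both 0 h libraries, with log2 means 2-fold or more apart, in 87 genes (0.93%), and below them in 214 genes (2.29%). With the means 4-fold or more apart there were 18 genes in each direction (0.192% each). The nearest libraries of the groups were themselves 2-fold or more apart in 18 genes that were higher (0.192%) and 36 that were lower (0.385%). Without regard to size, 1112 genes (11.9%) were higher with no overlap, 3180 (34%) were lower, and in 5061 genes (54.1%) the groups overlapped. After trimmed-mean scaling the counts of any size were even, at 1970 higher and 1953 lower, and after quantile normalization they were 1905 and 1960. The means of the groups differed by less than 1.5-fold in 7630 genes (81.6%). In 120 genes (1.28%) the 24 h mean was higher by 2-fold or more and in 240 (2.57%) it was lower, and 33 and 26 of these had overlapping groups. The counts at 2-fold changed when 1 library was left out, which changes a group mean and also leaves fewer libraries to be apart. They were 208 higher and 342 lower without 24 h library 1, and 226 and 470 without 24 h library 2. Without 0 h library 2 they were 268 and 588. Without 0 h library 1 they were 93 and 166, with fewer lower genes than in all 4 libraries. The parts of the means and of the overlap in these counts were not separated.

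The median gene stood 0.16 lower at 24 h than at 0 h on the log2 scale of the deposited values (-0.16), and the balance of the directions depended on this shift. Of the 301 genes, 71.1% were lower. After scaling by a trimmed mean of ratios, which brought the median to -0.0060, 171 genes were higher and 119 lower (41.0% lower), and after quantile normalization 159 were higher and 139 lower (46.6% lower). The 87 higher genes were all among the 171, and 119 of the 214 lower genes kept their place. Trimmed-mean scaling shifted the median gene upward, so that the 87 stayed was largely fixed by the shift. Relative to the median of all genes, the 87 genes stood at a median log2 difference of 1.39 and the 214 at -1.08.

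**Figure D1:**
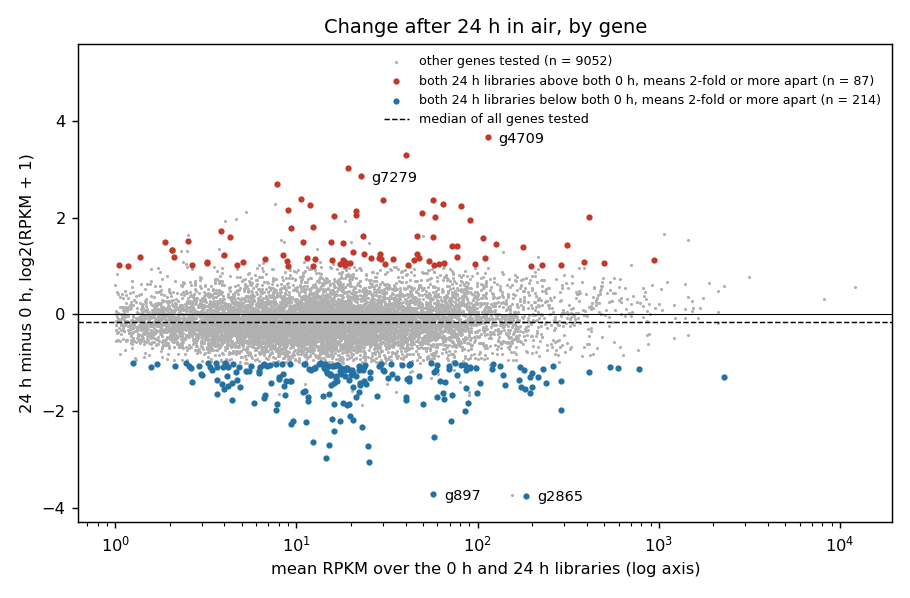
Difference between the 24 h and 0 h means (y axis, log2(RPKM + 1)) against the mean RPKM of the 4 libraries (x axis, log scale) for 9353 genes. Red and blue points are the 87 and 214 genes with no overlap and means 2-fold or more apart, and the dashed line is the median of all genes at -0.16. With trimmed-mean scaling the counts became 171 and 119.

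The gene with the widest gap above 0 h was g4709, which lies on scaffold00629 (710771 to 713754, minus strand) and codes over 1005 bp in 3 exons. It stood at 13.6 and 17.5 RPKM in the 0 h libraries and at 248 and 175 RPKM in the 24 h libraries. Both 24 h values lay an order of magnitude above both 0 h values, and the 24 h libraries differed by 0.50 on the log2 scale. The means were 15.5 ± 2.69 and 211 ± 51.4 RPKM (SD, n = 2 each), 13.6-fold apart, with a log2 difference of 3.67 (SE 0.66, limma adjusted p = 0.173) and of 3.83 relative to the median gene. It was called in 4 of 19 other settings, where the adjusted p ran from 0.00881 to 0.694. Each of those 4 settings left out 1 or both of the libraries labelled 1 h. The 0 h level rested on 680 and 1203 reads. Its level at the times in between was 125 and 602 RPKM at 1 h and 2818 and 2486 RPKM at 4 h, so the 24 h libraries held less than the 4 h libraries and more than the 0 h libraries. The difference of 24 h from 4 h was -3.66 on the log2 scale (limma adjusted p = 0.075).

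The next gene above 0 h was g7279, on scaffold01003 (1669032 to 1670706, plus strand), which codes over 1065 bp in 4 exons. It stood at 3.08 and 6.70 RPKM at 0 h and at 34.1 and 46.4 RPKM at 24 h, with no overlap. The means were 4.89 ± 2.56 and 40.3 ± 8.74 RPKM, 8.24-fold apart, a log2 difference of 2.86 (SE 0.60, limma adjusted p = 0.199; 0.0805 to 0.704 over the other settings). The 4 h libraries held 305 and 261 RPKM, and the 1 h libraries 22.0 and 81.8 RPKM. Like g4709, it was highest at 4 h in both libraries.

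The genes with the widest gap below 0 h were g2865 and g897. In both, the 0 h libraries were far apart. The 24 h libraries differed less, by 0.07 in g2865 and 0.42 in g897 on the log2 scale. g2865 lies on scaffold00366 (493722 to 494786, plus strand) and codes over 684 bp in 2 exons. It stood at 80.6 and 629 RPKM at 0 h and at 16.1 and 15.3 RPKM at 24 h. The log2 difference was -3.76 (SE 0.96, limma adjusted p = 0.214; 0.0992 to 0.525 over the other settings). It was -5.23 without 0 h library 1 and -2.29 without 0 h library 2, so the size, though not the direction, turned on which 0 h library was used. g897 lies on scaffold00066 (628977 to 636580, minus strand) and codes over 2145 bp in 19 exons. It stood at 29.9 and 188 RPKM at 0 h and at 5.67 and 4.00 RPKM at 24 h, a log2 difference of -3.73 (SE 0.83, limma adjusted p = 0.209; 0.0786 to 0.515 over the other settings). Without 0 h library 1 it was -5.03 and without 0 h library 2 it was -2.42. At 4 h the level of g2865 was 7.17 and 6.71 RPKM and that of g897 was 2.48 and 2.53 RPKM, below both 24 h libraries in each case. The direction of these 4 genes was the same under trimmed-mean scaling and quantile normalization. These moved the median gene only from -0.16 to -0.0060 and -0.013, so differences of this size could hardly turn.

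**Figure D2:**
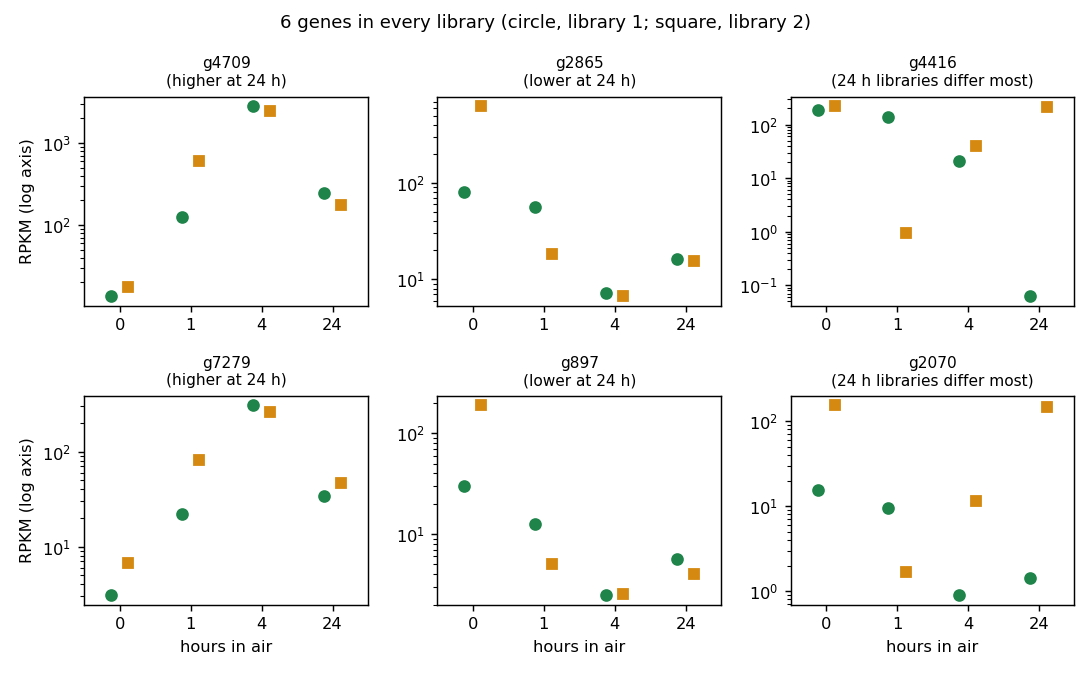
RPKM (y axis, log scale) of 6 genes in each library against hours in air (x axis), with library 1 as circles and library 2 as squares. g4709 and g7279 lie above 0 h in both 24 h libraries and g2865 and g897 below it, while the 24 h libraries of g4416 and g2070 lie on opposite sides of the plot.

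Taken over all 87 genes that stood higher at 24 h, the middle level was nearly equal in both 24 h libraries, at 29.3 and 28.8 RPKM, against 8.19 and 14.3 RPKM at 0 h. Gene by gene they were less alike, since the 24 h libraries differed by 2-fold or more in 38 of the 87 (43.7%) and in 57 of the 214 lower genes (26.6%), beside 8.15% of all genes. The same genes had median levels of 19.5 and 33.8 RPKM at 1 h and of 44.4 and 39.9 RPKM at 4 h. In 32 of the 87 both 4 h libraries lay above both 24 h libraries, beside 18.2% of all genes, and in 23 both lay below, beside 29.5% of all genes, which is a share near that of all genes. Of the 18 genes higher by 4-fold or more, 13 were higher at 4 h than at 24 h with no overlap, and their median levels were 241 and 237 RPKM at 4 h, 57.3 and 34.1 RPKM at 24 h and 5.04 and 7.37 RPKM at 0 h. The largest differences thus belonged mostly to genes that stood higher still at 4 h. In the same fit, 8 of the 87 genes were called lower at 24 h than at 4 h (limma, adjusted p under 0.05), beside 0.364% of all genes. Since these genes were chosen for their values at 24 h and 0 h, their levels in those libraries are a description.

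Among the 214 genes that stood lower at 24 h, the median level was 8.85 and 10.1 RPKM at 24 h and 28.9 and 22.8 RPKM at 0 h. It was 12.3 and 9.10 RPKM at 1 h and 7.14 and 6.72 RPKM at 4 h. These genes too were chosen for their values at 24 h and 0 h, so a 0 h level above that of the other times is partly fixed by the choice. In 92 of the 214 genes both 4 h libraries lay below both 24 h libraries, beside 29.5% of all genes, in 22 they lay above, beside 18.2%, and 6 were called higher at 24 h than at 4 h, beside 0.299% of all genes. Of the 18 genes lower by 4-fold or more, 12 were lower at 4 h than at 24 h with no overlap. Under trimmed-mean scaling all 18 of these genes stayed lower by 2-fold or more without overlap. That scaling moved the median gene only from -0.16 to -0.0060, so genes chosen at 4-fold could hardly rise past 2-fold.

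**Figure D3:**
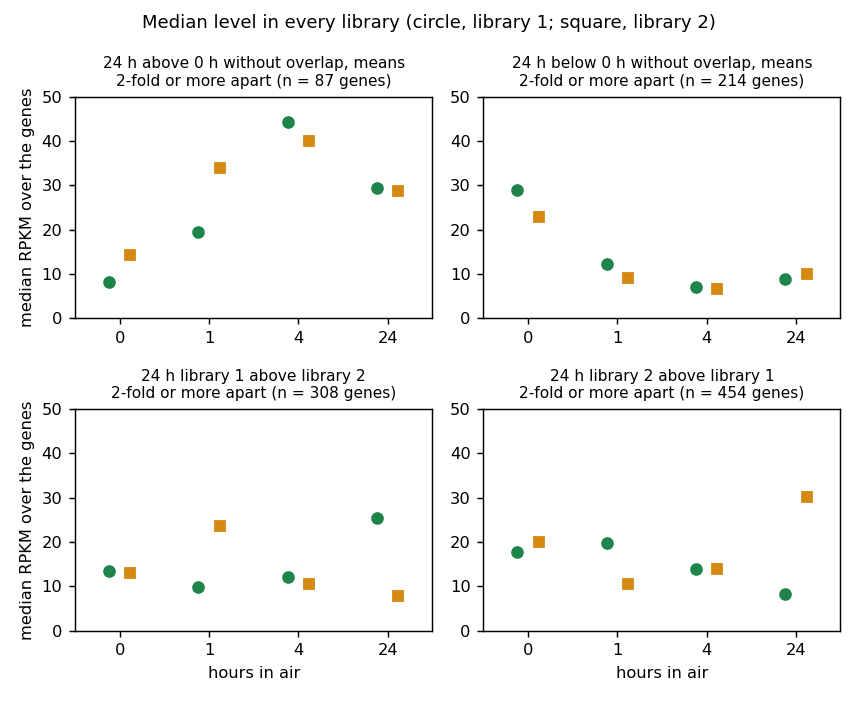
Median RPKM (y axis) over 4 classes of genes in each library against hours in air (x axis), with library 1 as circles and library 2 as squares. In the upper panels (87 and 214 genes, chosen for no overlap between 24 h and 0 h) the medians of the 24 h libraries are close, though 38 and 57 of these genes differ by 2-fold or more between them, and in the lower panels (308 and 454 genes, chosen for a 2-fold difference between the 24 h libraries) 1 h library 2 lies near 24 h library 1.

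Set against separate 0 h libraries, the 24 h libraries agreed only in part. The change of 24 h library 1 from 0 h library 1 and that of 24 h library 2 from 0 h library 2 share no library, and across the 9353 genes they correlated at r = 0.23 (rho = 0.23). With the numbers crossed r was 0.14 (rho = 0.19). With the same numbers, 391 genes were higher by 2-fold or more in the first pair and 152 in the second, and 23 genes (0.246%) were higher in both, which is 5.88% and 15.1% of the lists. For lower genes the numbers were 821 and 218, with 70 genes (0.748%) in both, 8.53% and 32.1% of the lists. Genes that moved by 2-fold or more in opposite directions numbered 4 and 15. With the numbers crossed, 26 genes (0.278%) were higher and 77 (0.823%) lower in both pairs, and 28 and 36 moved in opposite directions. These correlations are across genes of the same libraries, and genes are not independent replicates.

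**Figure D4:**
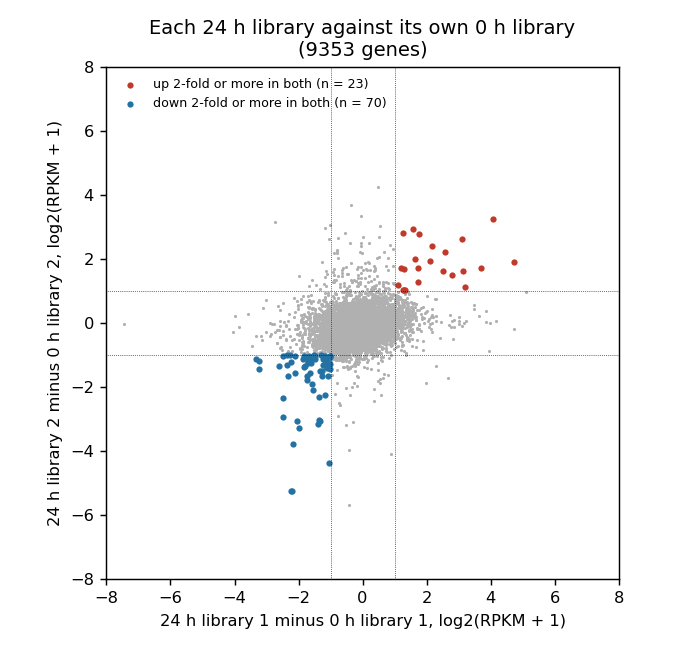
Change of 24 h library 2 from 0 h library 2 (y axis) against that of 24 h library 1 from 0 h library 1 (x axis), log2(RPKM + 1), for 9353 genes, with dotted lines at 2-fold. The red and blue points are the 23 and 70 genes beyond 2-fold in both pairs, and most genes beyond 2-fold in 1 pair are not so in the other.

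Of the 762 genes in which the 24 h libraries differed by 2-fold or more, 308 were higher in library 1 and 454 in library 2. The 308 genes had median levels of 25.4 and 7.92 RPKM in 24 h libraries 1 and 2, beside 13.6 and 13.1 RPKM at 0 h. The 454 genes had median levels of 8.28 and 30.2 RPKM at 24 h, beside 17.8 and 20.1 RPKM at 0 h. In both classes the 0 h level lay between the 24 h libraries. 1 h library 2 was nearer to 24 h library 1 than to 24 h library 2 in 305 of the 308 genes (99.0%) and in 416 of the 454 (91.6%), beside 72.2% of all genes. 1 h library 1 was nearer to 24 h library 2 in 82.8% and 78.9% of them, beside 58.3% of all genes. These genes were chosen for a wide difference between the 24 h libraries, which makes the nearer of the 24 h libraries easier to tell. Shares further from an even split than those of all genes are thus partly fixed by the choice.

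The widest differences between the 24 h libraries were those of g4416 and g2070, both at the first base of their scaffolds and both models that lack a start or a stop codon. g4416, with 4 coding exons on the plus strand of scaffold00558 (1 to 1680), stood at 0.0630 RPKM in 24 h library 1, from 2 reads, and at 215 RPKM in library 2, from 6991 reads. Its 0 h libraries held 184 and 221 RPKM, its 1 h libraries 137 and 0.943 RPKM and its 4 h libraries 20.9 and 39.6 RPKM. g2070, with 1 coding exon on the plus strand of scaffold00214 (1 to 486), stood at 1.42 and 148 RPKM at 24 h and at 15.4 and 154 RPKM at 0 h. It stood at 9.55 and 1.69 RPKM at 1 h and at 0.892 and 11.5 RPKM at 4 h, where library 1 held 8 reads. In g4416 the lowest libraries were 24 h library 1 and 1 h library 2, and in g2070 they were 4 h library 1, 24 h library 1 and 1 h library 2. By 8-fold or more, 17 genes were higher in 24 h library 1 and 29 in library 2. The 17 genes had median levels of 29.9 and 1.60 RPKM in 24 h libraries 1 and 2, 2.44 and 1.80 RPKM at 0 h, 2.35 and 57.6 RPKM at 1 h, and 12.5 and 39.2 RPKM at 4 h. The median of 24 h library 2 was thus close to that of 0 h and the median of 24 h library 1 was not. The 29 genes had median levels of 4.61 and 84.8 RPKM in 24 h libraries 1 and 2, 26.1 and 47.9 RPKM at 0 h, 25.4 and 6.604 RPKM at 1 h, and 9.28 and 17.1 RPKM at 4 h. There neither 24 h library was close to 0 h, with library 1 below both 0 h medians and library 2 above both.

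Some of the 301 genes lay side by side on the genome. Of 7439 neighbouring pairs with both genes among those compared, 7 had both genes higher and 6 had both lower by 2-fold or more without overlap, and 4 held one of each. Over all genes compared the shares were 0.93% higher and 2.29% lower. Whether neighbours fell in the same class more often than these shares alone would give was not tested. The 13 pairs formed 4 runs of higher genes, with 11 genes in all, and 6 runs of lower genes, with 12. The longest run was chosen here after its values were seen and held 4 genes on scaffold00514 (2019054 to 2036037), the first 3 on the minus strand and the last on the plus strand. The first stood at 4.73 and 5.16 RPKM at 0 h and at 12.9 and 41.5 RPKM at 24 h. The second stood at 4.02 and 4.70 RPKM and at 132 and 20.0 RPKM. The third went from 22.8 and 20.1 RPKM to 105 and 110 RPKM.

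The last of the 4 neighbours was the most abundant, at 147 and 180 RPKM at 0 h and 635 and 691 RPKM at 24 h. Its log2 difference of 2.02 (SE 0.27) had an adjusted p of 0.111 in limma, the smallest of the comparison, shared by 8 genes of which 2 were higher and 6 lower. The log2 differences of the other 3 neighbours were 2.03, 3.31 and 2.28. At 4 h the 4 genes held 246 and 246, 925 and 819, 983 and 683, and 3343 and 3238 RPKM, in order along the scaffold, so each was several-fold lower at 24 h than at 4 h and above its 0 h level in both libraries. A run of 3 higher genes lay on the same scaffold (12767 to 25949), with log2 differences of 1.53, 2.06 and 2.27. The differences of these 7 genes were larger under trimmed-mean scaling, at 1.61 to 3.45. Neighbouring predictions can be parts of 1 transcribed unit, and no source used here says whether the counting kept strand.

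**Figure D5:**
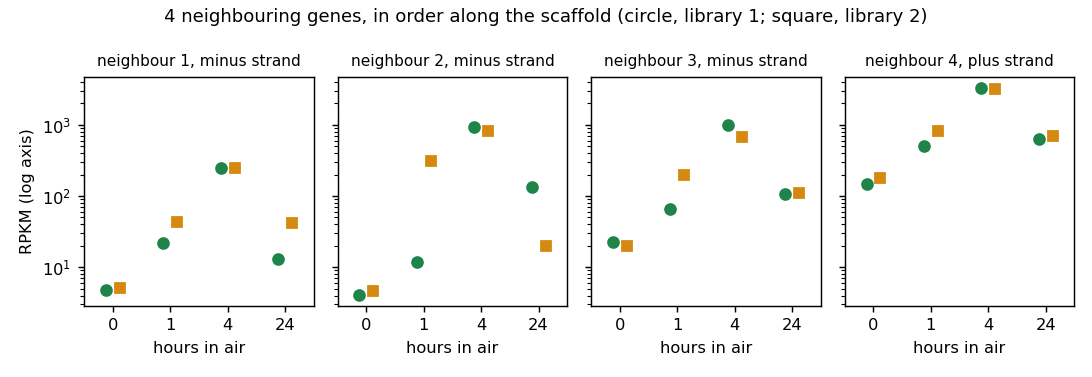
RPKM (y axis, log scale) of the 4 neighbouring genes of the longest run in each library against hours in air (x axis), with library 1 as circles and library 2 as squares. Both 24 h libraries lie above both 0 h libraries in each gene, by the least in the first, at 12.9 against 5.16 RPKM.

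The separated genes were set beside all genes compared by the structure of their models. The 87 higher and 214 lower genes both had a median of 6 coding exons, beside 7 in all genes compared, and median coding lengths of 945 and 794 bp, beside 1013 bp. Introns took a median of 55.8% and 52.5% of their spans, beside 56.3%. Of the 140 genes with 1 coding exon in the table, 136 were compared, and 2 were higher and 9 lower (6.62% lower, beside 2.29% of all genes). With trimmed-mean scaling 4 were higher and 6 lower. Their median level was 53.8 RPKM, beside 14.1 RPKM for all genes. RPKM here is per kilobase of span with introns, which took a median of 8.79% of their spans, so these levels are not on equal terms. The 24 h libraries differed by 2-fold or more in 11.8% of them, beside 8.15% of all genes. Of 1647 genes with 15 or more coding exons, 1378 were compared, and 11 were higher and 23 lower (0.798% and 1.67%). Of 162 genes with more than 1 predicted transcript, 140 were compared, and 2 were higher and 1 lower (1.43% and 0.714%). Of 1383 models without both a start and a stop codon, 1303 were compared, and 8 were higher and 37 lower (0.614% and 2.84%). Of 2994 genes in head-to-head pairs at most 500 bp apart, 2693 were compared, and 25 were higher and 66 lower (0.928% and 2.45%). Over all genes the shares were 0.93% and 2.29%. After trimmed-mean scaling the balance turned in 3 of these lists, to 18 higher and 12 lower among genes with 15 or more coding exons, 25 and 22 among models without both codons, and 48 and 40 in head-to-head pairs. After quantile normalization it turned in the first alone, with 18 higher and 13 lower, while the others held 23 and 28, and 44 and 48. The median log2 difference of these lists ran from -0.17 to -0.13, beside -0.16 for all genes. Since limma called 0 of all 9353 genes, no list could hold a called gene.

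Shorter and more abundant genes held more of the separated genes, and their 24 h libraries also differed more often. In the shortest and longest of the bins below, the 24 h libraries differed by 2-fold or more in 9.02% and 6.33% of genes. In the bins with the highest and lowest level they did so in 10.1% and 7.01%, beside 8.15% of all genes. When the genes were split into 4 equal bins, the bin with the shortest coding length (median 438 bp) held separated genes more often than the one with the longest. In the shortest, 74 of 2339 genes were lower and 24 higher (3.16% and 1.03%), and in the longest (median 2301 bp) 36 of 2338 were lower and 15 higher (1.54% and 0.642%), beside 2.29% and 0.93% of all genes. After trimmed-mean scaling they held 45 lower and 50 higher, and 21 lower and 28 higher. After quantile normalization they held 56 lower and 44 higher, and 21 lower and 27 higher. In the bin with the lowest level (median 3.23 RPKM) 35 of 2339 were lower and 16 higher (1.496% and 0.684%), and in the highest (median 69.6 RPKM) 66 of 2338 were lower and 34 higher (2.82% and 1.45%). After trimmed-mean scaling the lowest and highest bins by level held 17 and 36 lower and 24 and 67 higher genes, and after quantile normalization 14 and 55 lower and 28 and 50 higher, so which direction prevailed in the highest bin depended on the scaling. Length and level move together in these genes, since the median level fell from 26.1 RPKM in the shortest bin to 6.96 RPKM in the longest. By bin of intron share, lower genes numbered 69, 55, 49 and 41 from the least to the most intron, and higher genes 22, 24, 23 and 18, in bins of 2338 or 2339 genes. After trimmed-mean scaling these bins held 39, 29, 34 and 17 lower and 45, 50, 46 and 30 higher genes. After quantile normalization they held 46, 34, 36 and 23 lower and 40, 50, 38 and 31 higher, so lower genes still prevailed in the bin with the least intron. The pseudocount shrinks differences of low genes, which enters the counts by level.

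The most abundant transcripts were largely the same at both times. Of the 100 genes with the highest mean RPKM at 0 h, 79 were also among the 100 highest at 24 h, and 7 were shared by the 10 highest. Of the reads, 5.07% and 5.32% at 0 h and 6.56% and 8.13% at 24 h fell on the 10 genes with most reads, so both 24 h libraries were more concentrated. For the 100 genes with most reads the shares were 20.2% and 23.4% at 0 h and 25.4% and 25.8% at 24 h. Of the 100 highest at 24 h, 39 were higher than at 0 h without overlap and 7 lower, which is partly fixed by choosing them at 24 h. Of the 100 highest at 0 h, 24 were higher and 21 lower. Over all genes the shares without overlap were 11.9% and 34% in the deposited values.

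The gene with the highest level at 24 h was g2859, with 3 coding exons on the plus strand of scaffold00366 (466642 to 467696), at 14054 and 14997 RPKM beside 9250 and 10366 RPKM at 0 h. Its log2 difference was 0.57 (SE 0.21, limma adjusted p = 0.240). The next was g7741, with 2 coding exons on the plus strand of scaffold01012 (2389666 to 2390500), at 9359 and 8804 RPKM beside 7545 and 7111 RPKM at 0 h (log2 0.31, SE 0.20, limma adjusted p = 0.419). The steadiest genes of at least 10 RPKM were g8305, at 14.81 and 14.83 RPKM at 0 h and 15.03 and 14.90 RPKM at 24 h, and g4409, at 129 and 127 RPKM at 0 h and 129 and 127 RPKM at 24 h. Their values spanned 0.0206 and 0.0214 on the log2 scale over the 4 libraries.

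Against the other times, the 24 h level was tested in the same fit. Between 24 h and 4 h, 28 genes were called higher at 24 h (0.299%) and 34 lower (0.364%), and voom called 33 in all. Between 24 h and 1 h, limma called 0 of 9353 genes and voom 0. In limma 63 genes had a p under 0.05 before adjustment, where chance alone gives 468. Each 24 h library was close to the 1 h library of the other number (r = 0.992 and 0.980), so the group means lay near each other. The libraries within each group were less alike (r = 0.935 at 24 h and 0.955 at 1 h). This comparison therefore cannot show that levels at 1 h and 24 h were the same. The calls between 24 h and 4 h numbered 0 in each fit that lacked a library of 0 h or of 4 h. They numbered 41 without 24 h library 1, 1 without 24 h library 2 and 29 in each fit that lacked a 1 h library.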

How the data were processed

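The deposited table holds RPKM in 1 column per library, per the file headers. The submitters' processing notes name TopHat and HTSeq; versions, settings and assembly: not stated in these sources. The other deposited file holds gene models predicted with AUGUSTUS, per the file headers, with positions counted from 1, and all 10283 genes of the table were found in it. Reads were recovered as RPKM times gene end minus start, divided by the constant of the library.

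From the deposited RPKM, log2(RPKM + 1) was computed. The added 1 RPKM understates the change of low genes, and fold differences from the fit are on this scale. All 8 libraries, in 4 groups, entered a single fit with limma 3.58.1 (R 4.3.3), with intensity trend and robust moderation, on 4 residual degrees of freedom and 3.63 prior ones in the median gene. Calls needed a two-sided p below 0.05 after Benjamini-Hochberg adjustment over all 9353 genes. Since the labels do not say that libraries of a time came from separate cultures beyond the note of a pair of experiments, p-values measure the spread between these libraries. The fit was tested on simulated reads. Descriptions and figures used Python 3.11.15, pandas 2.3.3 and matplotlib 3.10.9.

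Named genes had a mean of at least 10 RPKM. They were the 2 with the widest gap between the groups in each direction, the 2 whose 24 h libraries differed most, the 2 highest at 24 h and the 2 with the smallest range, besides the 2 nearest to the minimum on each side. The genes and lists were chosen with earlier results of these data known. Alternatives changed the pseudocount, filter, scaling (trimmed mean of ratios with 30% of ratios and 5% of levels trimmed, or quantiles), moderation, replicate block, libraries and test (voom on recovered reads).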

Additional observations from a re-analysis of the deposited data

Results flagged for a closer look

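In 62 genes the change from 0 h was different at 24 h and at 4 h, by a direct test of 24 h against 4 h (0.663% of 9353, limma, adjusted p under 0.05), 28 higher and 34 lower at 24 h. Of these, 8 of the 34 were among the 87 genes that stood higher at 24 h than at 0 h by 2-fold or more in the means without overlap, and 6 of the 28 were among the 214 that stood lower. The count depended on the libraries in the fit and fell when any 1 of them was left out. A fit that lacks a library also has fewer degrees of freedom, so it does not test the label of that library. The part of the crossed likeness between the 1 h and 24 h libraries in this count was not tested.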

How the results depend on the processing

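No value listed here changed sign, but the balance of higher and lower genes turned with the scaling. Calls at 24 h against 0 h numbered 0 to 14 with 1 library left out, and 1 with the 0 h and 24 h libraries only and 1 without both libraries labelled 1 h. They stayed at 0 under every other setting, the replicate block included. Calls at 24 h against 4 h (62) became 36 with a pseudocount of 5 RPKM, 16 with no filter beyond a mean above 0 RPKM, 39 at a mean of at least 10 RPKM, 23 after quantile normalization, 29 without both libraries labelled 1 h, 22 with neither trend nor robust moderation, 33 in voom, 0 with the replicate block, and 0 to 41 with 1 library left out. With a pseudocount of 0.1 RPKM the calls at 24 h against 4 h rose to 88, and after trimmed-mean scaling they numbered 47. Calls at 24 h against 1 h stayed at 0 in all settings run. Same-numbered 0 h and 24 h libraries deviated together at r = 0.08, and the labels do not say what the number marks.

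The 87 higher and 214 lower genes became 51 and 107 with a pseudocount of 5 RPKM, 171 and 119 after trimmed-mean scaling, 159 and 139 after quantile normalization, 378 and 1068 at 1.5-fold, 18 and 18 at 4-fold, and 93 to 268 and 166 to 588 with 1 library left out. The median change of -0.16 became -0.18 and -0.10 with pseudocounts of 0.1 and 5 RPKM, -0.13 with no filter and -0.13 at 10 RPKM, -0.0060 and -0.013 after trimmed-mean scaling and quantile normalization, and -0.19 to -0.12 with 1 library left out. The counts of higher and lower genes rose to 118 and 311 with a pseudocount of 0.1 RPKM. At a mean of at least 10 RPKM they were 64 and 153. The correlation from separate 0 h libraries was 0.14 with crossed numbers, and the median SD at 24 h was 0.154 with a pseudocount of 5 RPKM. A group reduced to 1 library was taken to vary as the others do. The alternatives for 24 h against 4 h and 1 h, and leaving out 1 h and 4 h libraries in turn, were chosen after seeing the data. The cause of these differences was not tested.

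One read in a gene of 1 kb stood for 0.0433 to 0.0599 RPKM, which limits values near 1 RPKM most. Read counts cover counting error alone.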
